A study of Elaeis guineensis with 6 samples.

Results

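Inflorescences of an untreated oil palm (Elaeis guineensis) were compared between leaf axil +5 and leaf axils -27 and -20, that is, between a late and 2 early positions along the same crown. The comparison used the 3 control libraries of a series of 6, and it covered the gene records with an FPKM (fragments scaled by gene length and by the mapped fragments of the library) of 1 or more in at least 1 of these 3 libraries. This gave 20261 of the 32099 gene records of the file. The control tree had no treatment and kept its leaves. The other 3 libraries came from a tree whose leaves had all been cut, apart from the unopened central leaf that the paper describes as kept to avoid tree death, and they cover the same leaf axils. The trees were felled 45 days after the defoliation, 1 library was made for each tree and leaf axil, and the labels call the tissue primordial inflorescence. The sex of the sampled inflorescences is not given in the labels. No library has a replicate, so no test was made, and every difference below describes these libraries of 1 tree. The difference between leaf axils -20 and -27 served as the yardstick, since these positions are the closest to each other.

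Each leaf of an oil palm carries an inflorescence bud in its axil, and leaves are numbered from the youngest opened ones outwards, with negative numbers for leaves still hidden in the crown. The axils of a crown therefore hold inflorescences of successive ages. The palm forms separate male and female inflorescences in alternating cycles on the same plant. In flowering plants, MADS-box transcription factors set meristem and floral organ identity. SQUAMOSA-type genes act in the change to floral meristems, DEFICIENS and GLOBOSA types (B class) in petals and stamens, AGAMOUS types (C class) in stamens and carpels, and AGL2 (SEPALLATA) and AGL6 types as partners of the others. KNOX homeobox genes keep meristem cells undifferentiated.

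SQUA1, a SQUAMOSA-type MADS-box gene, was the named gene with the largest difference in log2(FPKM + 1). Its level was 5.59 FPKM at leaf axil -27, 6.78 FPKM at -20 and 124 FPKM at +5. The value at +5 was 20.1 times the mean FPKM of the early leaf axils, and the difference in log2(FPKM + 1) was 4.13, against 0.24 between -20 and -27. Only 15 of the 20261 records had a larger positive difference. AGL2-5, a SEPALLATA-type gene, was listed at 0 at both early leaf axils and at 7.19 FPKM at +5. AGL6-1 was likewise listed at 0 at -27 and -20 and reached 2.21 FPKM at +5. These 2 genes entered the comparison only through their value at +5, so they could not have come out lower. With a pseudocount of 0.1 in place of 1, the differences of AGL2-5 (6.19) and AGL6-1 (4.53) were larger than that of SQUA1 (4.32). Of the B-class genes, GLO1 and GLO2 were already present early. GLO1 had 6.84 FPKM at -27, 8.01 FPKM at -20 and 11.2 FPKM at +5, a difference in log2(FPKM + 1) of 0.54 against an early gap of 0.20. GLO2 had 3.61 FPKM at -27, 4.86 FPKM at -20 and 7.83 FPKM at +5, a difference of 0.76 against an early gap of 0.34. Both genes were highest at +5 and stayed under a 2-fold difference.

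The other 5 named MADS-box genes stayed under 1 FPKM at all 3 leaf axils and were left out of the comparison. DEF1, the B-class partner of the GLOBOSA type, was listed at 0.164 FPKM at -27 and at 0 at -20 and +5. AGL2-3 was listed at 0 early and at 0.153 FPKM at +5. AG2, a C-class gene, and the SEPALLATA-type genes MADS2 and AGL2-2 were listed at 0 in all 3 control libraries. At +5 the named MADS-box genes that could be read were thus of the SQUAMOSA, SEPALLATA, AGL6 and GLOBOSA types. The library at +5 held no measured level of the named C-class gene.

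**Figure D1:**
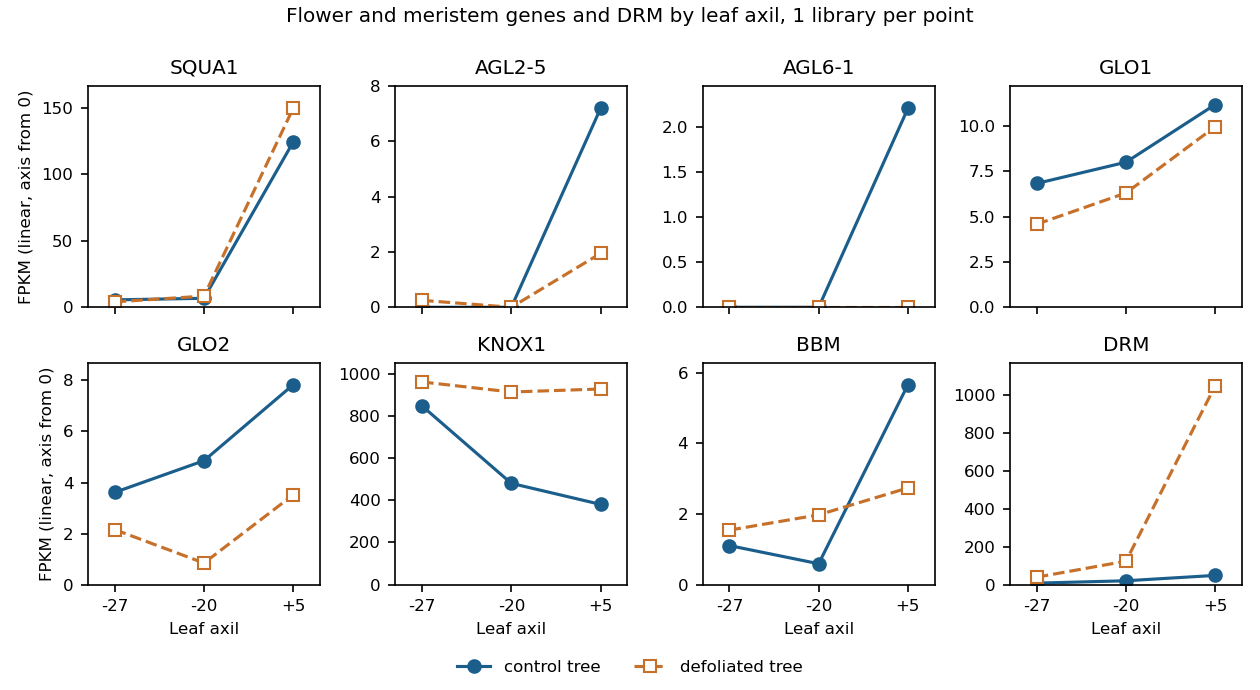
FPKM (y axis, linear) by leaf axil (x axis) for 8 named genes, with filled circles and solid lines for the control tree and open squares and dashed lines for the defoliated tree, 1 library per point. In the control tree SQUA1 reaches 124 FPKM at +5 and KNOX1 has its lowest value, 381 FPKM, there.

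KNOX1 was the 11th most abundant record at leaf axil -27. Its level was 847 FPKM at -27, 480 FPKM at -20 and 381 FPKM at +5, so it was lower at each later leaf axil. The difference between +5 and the early mean (-0.74 in log2(FPKM + 1)) was no larger than the gap between -20 and -27 (0.82). Set against -27 alone the difference was -1.15, past 2-fold. BBM, an AP2-type transcription factor gene (BABY BOOM) known for promoting embryo formation, had 1.10 FPKM at -27, 0.591 FPKM at -20 and 5.66 FPKM at +5. Its difference was 1.86, against an early gap of 0.40 in the other direction.

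Over all records, leaf axil +5 stood further from the early leaf axils than these stood from each other. The log2(FPKM + 1) values of -20 and -27 had a Pearson's r of 0.977 across records, while those of +5 had 0.857 with -27 and 0.862 with -20. Records are not independent replicates, and these values only describe the libraries. At least 2-fold means an absolute difference of 1 or more in log2(FPKM + 1), a scale that understates the differences of low genes. By this measure 1849 records (9.13%) were higher and 894 (4.41%) were lower at +5 than the early mean. Between -20 and -27, 229 records (1.13%) were at least 2-fold apart, 123 (0.607%) higher and 106 (0.523%) lower at -20. The value at +5 lay above both early values for 9788 records (48.3%) and below both for 7445 (36.7%). Of the records at least 2-fold higher or lower at +5, 1840 (9.08%) and 884 (4.36%) also had a difference larger than their own early gap. At least 4-fold, there were 368 higher and 139 lower records at +5, against 11 records apart between the early leaf axils. At least 8-fold, there were 89 higher and 36 lower records, against 3.

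Higher records outnumbered lower ones, and this imbalance depended on the scaling. They made up 67.4% of the records past 2-fold with FPKM as deposited and 55.6% after each library was centred on its median, with 1485 higher and 1185 lower records. Centring lowered every difference by 0.13. The median difference of all records was 0.08 as deposited and -0.05 after centring. The filter could not change the count, which was also 1849 higher and 894 lower records without it. A difference of 1 or more in log2(FPKM + 1) requires an FPKM of 1 or more in at least 1 of the 3 libraries. Some of the counted records were low on 1 side of the comparison. Of the 1849 higher records, 627 had an FPKM under 1 at both early leaf axils, and of the 894 lower records 308 had an FPKM under 1 at +5. Among the 17104 records with an FPKM of 1 or more in all 3 libraries, 1038 (6.07%) were higher and 586 (3.43%) lower at +5, and 81 were at least 2-fold apart between the early leaf axils.

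**Figure D2:**
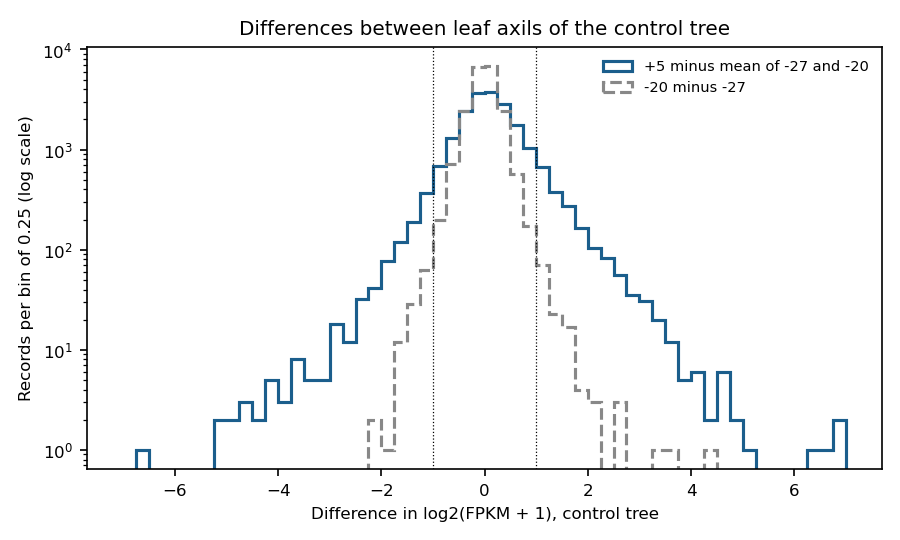
Number of gene records (y axis, log scale) by difference in log2(FPKM + 1) (x axis, bins of 0.25) for +5 minus the early mean (solid) and -20 minus -27 (dashed) in the control tree, with dotted lines at a 2-fold difference. Past these lines lie 1849 and 894 records for +5 and 229 in all for the early leaf axils.

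Records past 2-fold at +5 were spread over both directions between the early leaf axils, much as all records were. Of the 1849 records higher at +5, 887 (48.0%) were higher at -20 than at -27, 841 were lower and 121 were equal there. The 121 equal records were listed at 0 at both early leaf axils. Of the 894 records lower at +5, 429 (48.0%) were higher and 465 lower at -20 than at -27. Of all 20261 records, 9956 (49.1%) were higher and 10184 lower at -20 than at -27. The few that were at least 2-fold apart between the early leaf axils ran both ways, with 22 up and 16 down among the higher records and 21 up and 19 down among the lower ones. The 4 named genes with the largest early gaps, DRM, CAT2, GST and KNOX1, differed in the same direction at both steps. RPL27 and ARP, with the next largest early gaps (0.77 and 0.57), differed in opposite directions at these steps. KNOX1, RPL27 and ARP were under 2-fold at +5.

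A name was available for 55 nuclear genes, 23 of them by a symbol in the file and 32 by a synonym in a RefSeq gene table. Of these, 46 entered the comparison, 11 were at least 2-fold higher at +5 (background 9.13%), 5 were at least 2-fold lower (background 4.41%) and 30 stayed under 2-fold. All 16 differences past 2-fold were larger than the early gap. The same held for 1840 of all 1849 higher and 884 of all 894 lower records. Genes with a name are no sample of the genome, so these counts describe them alone.

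Of the 5 named genes past 2-fold downwards, 3 are used in every cell. ADPRF, which by its symbol codes for an ADP-ribosylation factor of vesicle traffic, had 243 FPKM at -27, 274 FPKM at -20 and 92.7 FPKM at +5, a difference in log2(FPKM + 1) of -1.47. TCTP, the translationally controlled tumour protein gene, had 1175 FPKM at -27, 1016 FPKM at -20 and 430 FPKM at +5, a difference of -1.34. ACT1, an actin gene of the cytoskeleton, had 245 FPKM at -27, 273 FPKM at -20 and 120.4 FPKM at +5, a difference of -1.09. All 3 genes had their value at +5 well below both early values, which lay within 0.21 of each other. The translation genes were closer to level. EF1, the elongation factor 1-alpha gene, had 597 FPKM at -27, 640 FPKM at -20 and 581 FPKM at +5, a difference of -0.09 that was smaller than the early gap of 0.10 and turned to 0.07 after quantile normalization. EF1B had a difference of -0.37, against an early gap of 0.35. The ribosomal protein genes RPL21 and RPL27 had differences of 0.22 and 0.33, the second of them within an early gap of 0.77 and turned to -0.06 without control -20. ACT1 and EF1, both often used as reference genes, thus stood in a different ratio at +5 than at the early leaf axils.

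**Figure D3:**
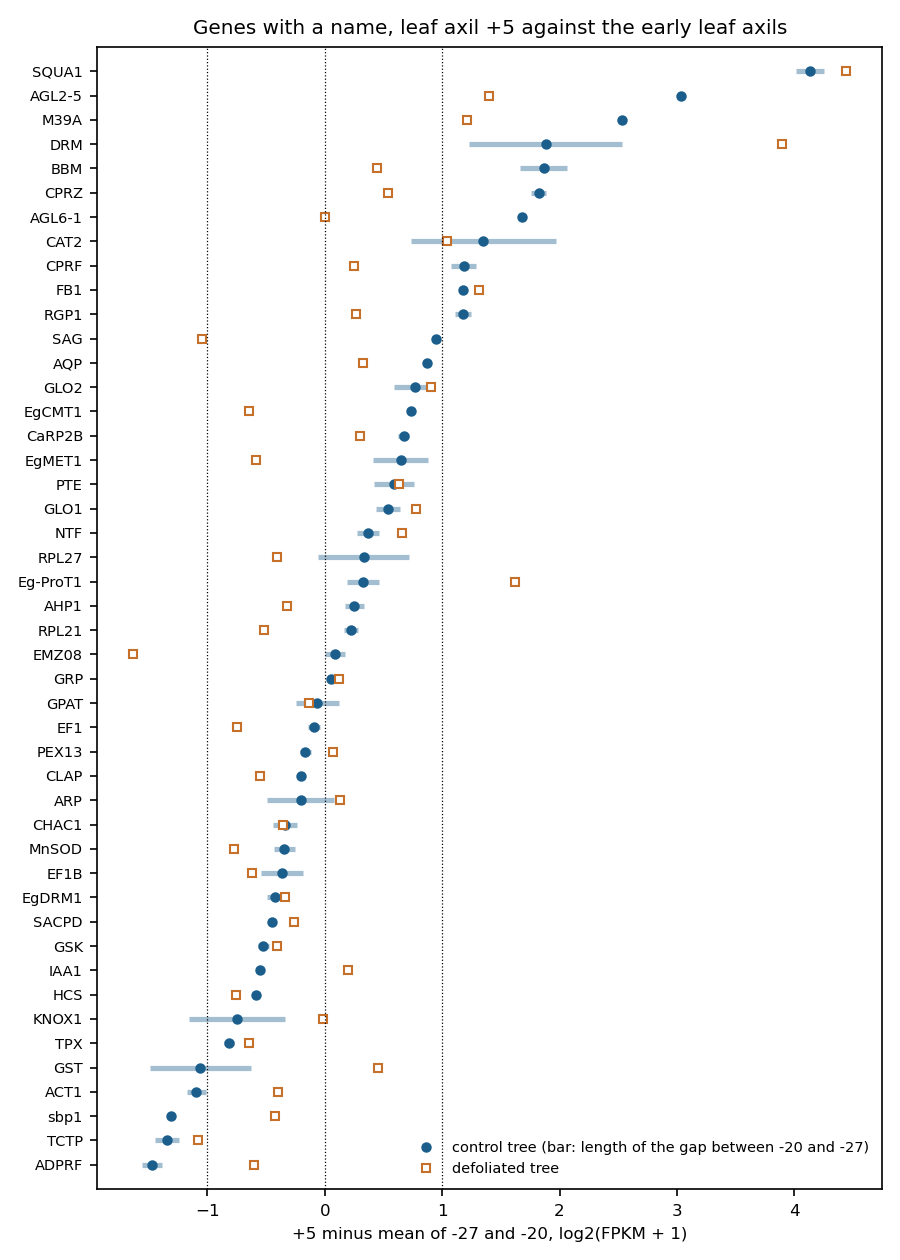
Difference between +5 and the early mean in log2(FPKM + 1) (x axis) for the 46 named genes in the comparison (y axis), with filled circles for the control tree, a bar as long as the gap between -20 and -27 in the control tree, open squares for the defoliated tree, and dotted lines at 0 and at 2-fold. SQUA1 lies at 4.13 and ADPRF at -1.47.

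Among hormone signalling genes no difference reached 2-fold. IAA1, an Aux/IAA repressor of auxin responses, had 136 FPKM at -27, 129 FPKM at -20 and 90.1 FPKM at +5, a difference of -0.55 against an early gap of 0.07. GSK, which by its symbol codes for a kinase of the glycogen synthase kinase 3 (shaggy) type that acts in brassinosteroid signalling, had 66.8 FPKM at -27, 71.2 FPKM at -20 and 47.7 FPKM at +5, a difference of -0.52 against a gap of 0.09. AHP1, a phosphotransfer protein of cytokinin signalling, had 18.0 FPKM at -27, 16 FPKM at -20 and 20.4 FPKM at +5, a difference of 0.25.

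The oxidative stress genes went in different directions. CAT2, a catalase that breaks down hydrogen peroxide, had 4.08 FPKM at -27, 11.0 FPKM at -20 and 18.9 FPKM at +5, and its difference of 1.35 was little larger than the early gap of 1.24. GST, a glutathione S-transferase gene, ran the other way with 27.4 FPKM at -27, 14.7 FPKM at -20 and 9.15 FPKM at +5, a difference of -1.06 against a gap of 0.85. Set against leaf axil -20 alone, neither CAT2 (0.73) nor GST (-0.63) was past 2-fold. MnSOD, the manganese superoxide dismutase gene, had 20.3 FPKM at -27, 23.1 FPKM at -20 and 16.9 FPKM at +5, a difference of -0.34.

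Of the named DNA methyltransferase genes, EgCMT1, a chromomethylase, had 8.28 FPKM at -27, 7.83 FPKM at -20 and 14.0 FPKM at +5, a difference of 0.73 against an early gap of 0.07. EgMET1, the maintenance methyltransferase of CG sites, had 4.06 FPKM at -27, 6.01 FPKM at -20 and 8.34 FPKM at +5, a difference of 0.65 against a gap of 0.47. EgDRM1, of the domains-rearranged type that adds new methylation, had 17.6 FPKM at -27, 19.5 FPKM at -20 and 13.5 FPKM at +5, a difference of -0.43. The maintenance-type genes were thus highest and the gene of the type for new methylation was lowest at +5, all by less than 2-fold.

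Lipid genes stayed under 2-fold. PTE (synonym FATB1), an acyl-ACP thioesterase that releases palmitate, had a difference of 0.59 against an early gap of 0.34. SACPD, the stearoyl-ACP desaturase gene, had a difference of -0.45 against a gap of 0.04. GPAT, a glycerol-3-phosphate acyltransferase gene, had a difference of -0.06, within a gap of 0.37, which turned to 0.12 without control -20. The lipase gene LIP1 was listed at 0 in all 3 control libraries. Of the transport, wall and peroxisome genes, RGP1, coding for a reversibly glycosylated protein linked to wall polysaccharide synthesis, had 46.7 FPKM at -27, 51.7 FPKM at -20 and 112 FPKM at +5, a difference of 1.18 against a gap of 0.14. AQP, a water channel gene, had 122 FPKM at -27, 119 FPKM at -20 and 222 FPKM at +5, a difference of 0.87 against a gap of 0.03. The proline transporter gene Eg-ProT1 and the peroxisome gene PEX13 had differences of 0.33 and -0.16.

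For 16 further named genes in the comparison the role is not given here. M39A had 21.1 FPKM at -27, 21.0 FPKM at -20 and 127 FPKM at +5, a difference of 2.53 against a gap of 0.01. CPRZ had 25.7 FPKM at -27, 28.2 FPKM at -20 and 97.9 FPKM at +5, a difference of 1.82. DRM had 7.53 FPKM at -27, 20.1 FPKM at -20 and 48.4 FPKM at +5, so its level was higher at each later leaf axil, and its difference of 1.88 stood against a gap of 1.31. Smaller differences upwards were those of CPRF (1.18) and FB1 (1.18). The gene with the synonym sbp1 had 190.4 FPKM at -27, 192 FPKM at -20 and 76.6 FPKM at +5, a difference of -1.31. The remaining 10 genes of this kind stayed under 2-fold.

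Beyond named genes, the file and the RefSeq table pair the identifiers with no product names, so only the records with the largest differences are given. Among records with an FPKM of at least 10 at +5 the largest differences were those of LOC105046677, listed at 0 at -27 and -20 and at 121 FPKM at +5, and LOC105050253, with 0.405 FPKM at -27, 0.793 FPKM at -20 and 192 FPKM at +5 (difference 6.93 in log2(FPKM + 1)). Among records with at least 10 FPKM at both early leaf axils, LOC105055117 stood out with 950 FPKM at -27, 929 FPKM at -20 and 8.17 FPKM at +5, a difference of -6.68. LOC105033630 had 36.5 FPKM at -27 and 35.0 FPKM at -20 and was listed at 0 at +5. Within these limits on level, the 30 records with the largest positive differences had a median of 1.07 FPKM at -27, 1.01 FPKM at -20 and 46.2 FPKM at +5, and their early gaps reached at most 0.73. The 30 with the largest negative differences had a median of 24.8 FPKM at -27, 25.7 FPKM at -20 and 0.786 FPKM at +5, and early gaps of at most 1.48. These lists hold only records that met the 10 FPKM limits and whose difference was larger than their early gap. Named genes were not left out of them, and SQUA1 was 16th among the positive ones. The records of both lists are protein-coding in the RefSeq table apart from 1 long non-coding RNA among the positive ones and 1 pseudogene and 1 small nuclear RNA among the negative ones.

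Complete switches were fewer. There were 121 records listed at 0 at both early leaf axils and at 1 FPKM or more at +5, of which 15 reached 5 FPKM and 4 reached 10 FPKM. In the other direction, 50 records had 1 FPKM or more at both early leaf axils and were listed at 0 at +5, 9 of them with at least 5 FPKM and 4 with at least 10 FPKM early. A value of 0 here is a listed value, since the file holds no counts from which a detection limit could be set.

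The share of records past 2-fold varied with abundance. Of the 272 records with a mean FPKM of 100 or more over the 3 control libraries, 38 (14.0%) were past 2-fold upwards and 34 (12.5%) downwards at +5, and none was 2-fold apart between the early leaf axils. Of the 8135 records with a mean FPKM from 5 to under 20, 505 (6.21%) were higher and 335 (4.12%) lower. Among the 1310 records with a mean FPKM under 1, 277 (21.1%) were higher and 32 (2.44%) lower, and 4.50% were 2-fold apart between the early leaf axils. These means include +5. Under a mean of 1 FPKM this favours rises, since a rise can come from +5 alone while a fall rests on both early values. By the mean of the early leaf axils alone, 16 (6.18%) of the 259 records with 100 FPKM or more were higher and 44 (17.0%) lower. Under 1 FPKM by that early mean, 701 (39.0%) of 1798 records were higher, and a 2-fold fall was not possible. The 894 lower records held 10.4% of the summed FPKM at -27, 10.6% at -20 and 3.22% at +5. The 1849 higher records held 5.02% at -27, 5.09% at -20 and 16.4% at +5. The records were chosen for these differences, so the shares describe how much of the measured expression was exchanged. Of the 100 most abundant records, -20 and -27 shared 92, +5 and -27 shared 62, and +5 and -20 shared 56. Among the 38 that were in this group at +5 only, 28 were at least 2-fold higher there (background 9.13%). Of the 36 in this group at both early leaf axils and not at +5, 15 were at least 2-fold lower (background 4.41%). Both sets were picked on the same values, which favours such differences.

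The classes of the RefSeq table differed in direction. Protein-coding records followed the background, with 1624 of 17677 (9.19%) past 2-fold upwards and 690 (3.90%) downwards at +5. All 15 ribosomal RNA records of the comparison had a lower value at +5 than at both early leaf axils (background 36.7%). Of these, 9 were at least 2-fold lower (background 4.41%), with none higher. These 9 are the nuclear ones, whose summed FPKM was 385 at -27, 439 at -20 and 120.01 at +5, and the other 6 are 3 plastid genes listed in 2 copies each. Of the 9 nuclear records, 4 were 2-fold apart between the early leaf axils, and 3 entered the comparison only through an early library. Of 15 small nuclear RNA records, which belong to the splicing machinery, 10 were at least 2-fold lower (background 4.41%) and none was higher. However, 12 of the 15 entered the comparison only through an early library, which favours lower values, and 8 were 2-fold apart between the early leaf axils. Of 137 small nucleolar RNA records, which guide the modification of ribosomal RNA, 35 (25.5%) were lower and 17 (12.4%) higher. The background was 4.41% and 9.13%. Of the 137, 67 entered only through an early library and 12 only through +5, and 41 were 2-fold apart between the early leaf axils. In the defoliated tree none of the 15 ribosomal RNA and none of the 15 small nuclear RNA records was 2-fold lower at +5. In each of these classes 1 record was at least 2-fold higher there. Of the small nucleolar RNA records, 3 were lower and 27 higher in the defoliated tree. The records were chosen on control values, and in all 3 classes some had early values in the defoliated tree too low for a 2-fold fall. The small nuclear RNA records LOC114913930 and LOC114914277, for instance, were listed at 0 at both early leaf axils there. These counts therefore do not show that the lower values were absent in the defoliated tree. The part of these RNA classes in the other differences was not tested.

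**Figure D4:**
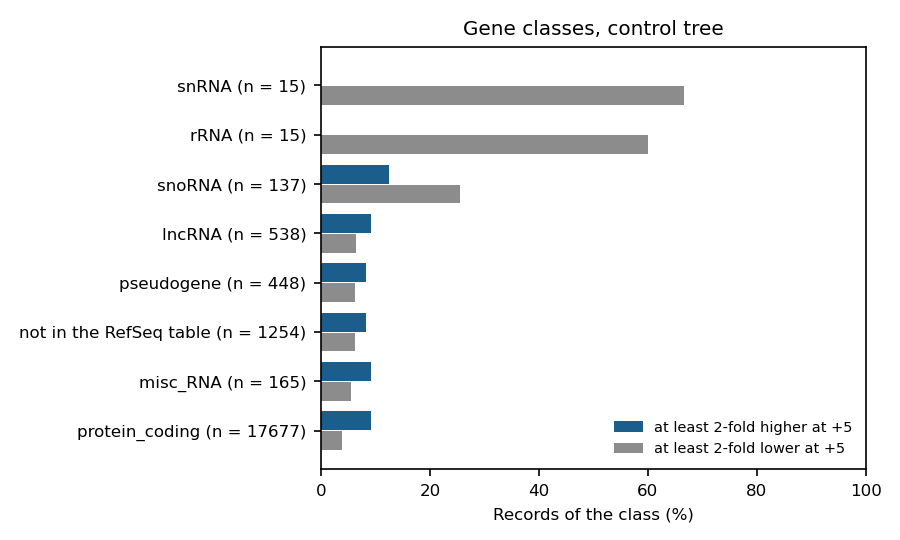
Share of the records of a RefSeq class (x axis, percent) that were past 2-fold upwards or downwards at +5 against the early mean in the control tree, for classes (y axis) with at least 15 records. Protein-coding records lie at 9.19% and 3.90%, and ribosomal RNA records at 0% and 60.0%.

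Of 138 plastid records in the file 31 entered the comparison, with 2 at least 2-fold higher and 2 lower at +5 and a median difference of -0.47. The summed FPKM of all plastid records was 206 at -27, 181 at -20 and 149 at +5. The ribosomal protein genes rps3, with 37.2 FPKM at -27, 26.2 FPKM at -20 and 26.2 FPKM at +5, and rpl22, with 28.5 to 30.7 FPKM, were the highest plastid records at each of the 3 leaf axils. Of the photosynthesis genes, rbcL codes for the large subunit of the carbon-fixing enzyme Rubisco and psbA for a core protein of photosystem II. Both stayed under 1 FPKM at all 3 leaf axils, with 0.465 to 0.606 for rbcL and 0.427 to 0.592 for psbA. Other photosynthesis genes passed this level. The gene petD was above 1 FPKM at all 3 leaf axils, with 2.75 FPKM at -20. The gene psbK was listed at 0 at -27 and had 0.48 FPKM at -20 and 2.08 FPKM at +5. It was 1 of the 2 plastid records at least 2-fold higher at +5. The level of petG was above 1 FPKM at -27 only, and those of psaI and psaJ at -20 only.

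Records with a difference past 2-fold lay on all nuclear chromosomes. The share of higher records ranged from 7.68% to 11.3% and that of lower records from 2.97% to 5.29% over the chromosomes of the RefSeq table, a newer assembly than that of the authors. Directly after a higher record along a chromosome, 13.1% of the next records were also higher, against 9.20% of all records with a position. After a lower record 8.26% of the next were also lower, against 4.29%. In all, 228 neighbouring pairs were both higher, 67 both lower and 125 opposite.

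The same difference was computed in the defoliated tree, whose libraries the choice of records did not use. Of the 1849 records higher in the control tree, 435 (23.5%) also had a 2-fold or larger difference upwards at +5 in the defoliated tree and 28 (1.51%) had it downwards, against 4.27% and 2.82% of all 20261 records. Of the 894 lower records, 238 (26.6%) were also at least 2-fold lower and 31 (3.47%) higher there. The shared records made up 50.2% of all those higher and 41.7% of all those lower in the defoliated tree. Any positive difference in the defoliated tree was found for 76.5% of the higher records, against 51.6% of all records, and any negative one for 74.4% of the lower records, against 47.9%. The median difference of the higher records was 1.41 in the control and 0.42 in the defoliated tree, and that of the lower records -1.33 in the control and -0.47 in the defoliated tree. A smaller value in the defoliated tree follows in part from the choice of records on the control values. Over all records, the differences of the control and the defoliated tree had a Pearson's r of 0.428 and a Spearman's rho of 0.325 across records, which are not independent.

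Records with larger differences in the control tree were more often past 2-fold in the same direction in the defoliated tree. This bar was fixed at 2-fold, so it does not show whether the sizes agreed more closely. For records at least 4-fold higher in the control tree, the median difference in the defoliated tree was 0.84. For those at least 4-fold lower it was -1.20. Of the 368 records at least 4-fold higher in the control tree 158 (42.9%) were at least 2-fold higher in the defoliated tree, and of the 139 at least 4-fold lower 84 (60.4%) were at least 2-fold lower there. Of the 15 records at least 16-fold lower in the control tree 14 were at least 2-fold lower in the defoliated tree, and of the 21 at least 16-fold higher 14 were higher. Both trees shared the SQUA1 difference, with 4.13 in the control and 4.44 in the defoliated tree, where it had 4.10 FPKM at -27, 8.43 FPKM at -20 and 150 FPKM at +5. GLO1 and GLO2 were also highest at +5 in the defoliated tree. AGL6-1 was listed at 0 in all 3 libraries of the defoliated tree, and AGL2-5 reached 7.19 FPKM at +5 in the control and 1.95 FPKM in the defoliated tree. KNOX1 had a difference of -0.74 in the control and -0.01 in the defoliated tree, and GST -1.06 in the control and 0.45 in the defoliated tree. DRM was higher at each later leaf axil in both trees and reached 48.4 FPKM at +5 in the control and 1048 FPKM in the defoliated tree. The tree and the treatment cannot be told apart, and whether the trees differ beyond the spread of such libraries could not be tested with 1 library each at +5.

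**Figure D5:**
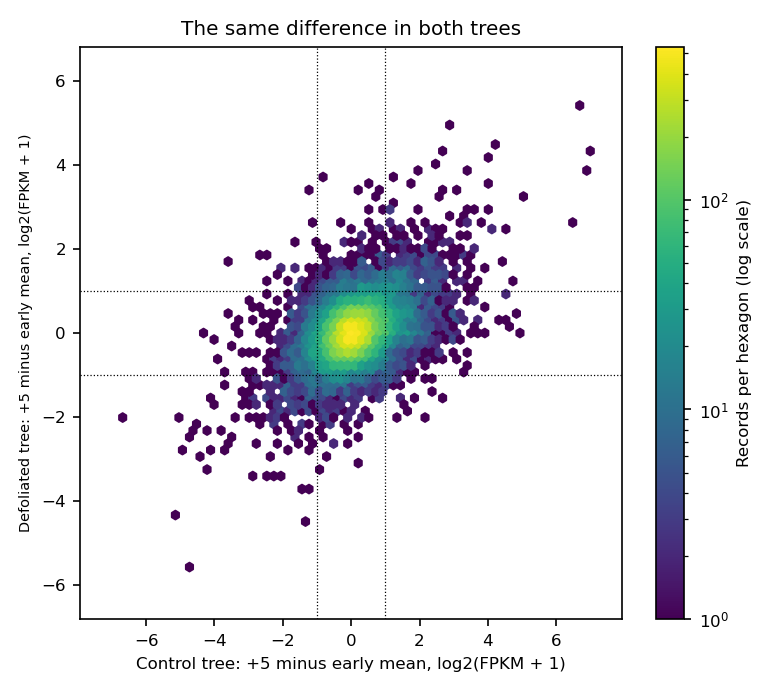
Difference between +5 and the early mean in log2(FPKM + 1) in the control tree (x axis) and in the defoliated tree (y axis) for the 20261 records, with colour for the number of records per hexagon (log scale) and dotted lines at 2-fold. The upper right field holds 435 records and the lower left field 238, while the lower right holds 28 and the upper left 31.

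The 2-fold line itself has no gap around it. The smallest difference counted as higher was 1.0002 and the largest not counted was 0.999982, with 678 records within 0.1 of the line, and 388 records lay within 0.1 of the line for lower records, where -1.00074 was counted and -0.998733 was not. Library sizes of the control tree did not differ much. Relative to control -27, the depth read from the steps of low FPKM values was 1.01 for control -20 and 0.949 for control +5. In the defoliated tree it was 1.19 at -27, 1.03 at -20 and 1.12 at +5. The number of records with at least 1 FPKM was 18402 at -27, 18396 at -20 and 19059 at +5.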

How the data were processed

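Untrimmed reads were mapped by the authors with HISAT2 (2.1.0 per the submitters' processing notes) after a quality check, and StringTie (1.3.4) gave the gene abundances. The deposited values are FPKM per gene and library, scaled by the authors for gene length and mapped fragments, with no further scaling stated. DESeq2 (1.18.1) is also named there, and was not run here because no counts were used. Columns were assigned to samples by their names. Absolute depth is not held by FPKM values. The paper gives the reads and the mapped share of each library, but these were not used here and no counting intervals were computed.

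From these values log2(FPKM + 1) was computed, and +5 was set against the mean of -27 and -20 within the control tree, as differences without a test. The steps used Python 3.11.15, pandas 2.3.3, numpy 2.4.6, matplotlib 3.10.9 and scipy 1.17.1 and were tested on simulated data. Symbols were looked up in a RefSeq table of a newer assembly (EG11), which held 19007 of the 20261 records (93.8%). It gave synonyms, classes and gene order. Named genes were all nuclear genes with a symbol in the file and, added after their values had been seen, those with a synonym in the table, grouped by role at that point. Unnamed records were limited to the 2 largest differences in each direction among those with at least 10 FPKM (at +5 or in both early libraries), a difference past the early gap and a unique identifier. The members, lists and groups were chosen with earlier results of these data known. Alternatives were a pseudocount of 0.1, no filter, a minimum mean FPKM of 5, centring on medians, quantile normalization, leaving out the 16 records with a repeated identifier, and leaving out each early library.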

Additional observations from a re-analysis of the deposited data

Results flagged for a closer look

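Named genes were looked up for a +5 value outside both early values in each tree, in opposite directions and by at least 0.5 in log2(FPKM + 1). This was the case for SAG (0.94 in the control and -1.04 in the defoliated tree), EgCMT1 (0.73 and -0.64) and EgMET1 (0.65 and -0.58, in the same order). SAG had 17.0 FPKM at -27, 17.3 FPKM at -20 and 33.9 FPKM at +5 in the control tree and 51.1, 30.1 and 18.5 FPKM at the same leaf axils in the defoliated tree. EgCMT1 had 6.90, 4.55 and 3.24 FPKM and EgMET1 3.99, 3.28 and 2.08 FPKM at these leaf axils in the defoliated tree. The difference between the trees was not tested, since each has 1 library at +5.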

How the results depend on the processing

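No paired analysis was possible because the labels carry no replicate numbers and each leaf axil has 1 library per tree. With a pseudocount of 0.1 there were 2840 higher and 1529 lower records, 1471 lower records past the early gap, and 1064 records 2-fold apart between the early leaf axils, and 37.0% of the higher records were also higher in the defoliated tree. With a mean FPKM of at least 5 over the 10755 records left, there were 739 higher and 521 lower records, 736 and 519 of them past the early gap, 48 were apart between the early leaf axils, and 31.3% of the lower records were also lower in the defoliated tree. The counts move because low records weigh more or are left out by construction, and the cause of the changed shares was not tested. Centring gave a median difference of -0.0507, and shares also found in the defoliated tree of 26.1% for higher and 23.2% for lower records. Quantile normalization gave 21.4% for lower records. Without control -27 or without control -20 there were 1923 to 1963 higher and 927 to 1000 lower records, with shared shares of 22.6% to 22.8% for higher and 22.6% to 25.7% for lower records. No named gene past 2-fold turned its direction under these alternatives. Of those under 2-fold, RPL27 (-0.06), GPAT (0.12) and ARP (0.08) turned without control -20, EF1 (0.07) and CHAC1 (0.35) with quantile normalization, and EMZ08 (-0.04) and GRP (-0.08) with centring. The median of the lipid genes turned to 0.12 without control -20, and that of the meristem and embryo genes to -0.74 with a mean FPKM of at least 5. KNOX1 (-1.15 without control -20), CAT2 (0.73 without control -27) and GST (-0.63 without control -27) crossed the 2-fold line. The median of the 5 MADS-box genes in the comparison was 1.68, the value of AGL6-1, and 0.76 where a mean FPKM of at least 5 was asked. AGL6-1 and AGL2-5 entered only through +5 and could not have come out lower, so the median of 1.68 depends on the filter.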
